A study of Mus musculus with 4 samples.

Results

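The imprinted domain of mouse distal chromosome 7 was described through 9 genes, H19, Igf2, Ins2, Ascl2, Kcnq1, Kcnq1ot1, Cdkn1c, Slc22a18 and Phlda2, and through the CTCF and RAD21 peaks around them. The genes were taken from a list of the H19-Igf2 and Kcnq1ot1 clusters, and peaks were taken where the summit fell in a window of 1.2 Mb, chr7:142400001-143600000 (mm10). Expression was not measured, so every value below is a position or strength of binding. The window held 45 of 47931 peaks of the wild-type CTCF list, 42 of 34499 of the InsCBS5-10 CTCF list, 44 of 36589 of the DelCBS7-10 CTCF list, 57 of 59484 of the wild-type RAD21 list and 26 of 19610 of the InsCBS5-10 RAD21 list. Chaining CTCF peaks that overlapped between the 3 CTCF lists gave 50 sites in the window, of 56026 on chromosomes 1 to 19, X and Y.

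The study edited HoxB on chromosome 11 and mapped CTCF and RAD21 by ChIPmentation, in which transposase tags antibody-bound chromatin, in gastruloids at 96 h. Gastruloids are embryonic stem cell clumps that elongate and pattern a body axis in culture. They were pooled for each of the 4 libraries, with 1 library per group: CTCF in wild type, CTCF and RAD21 in InsCBS5-10, and CTCF in DelCBS7-10. Both mutants carry the deletion Del of HoxB on 1 copy, and on the other copy Del(i9-13) together with the insertion Ins(CBS5-10) of CTCF binding sites. DelCBS7-10 carries Del(CBS7-10) in addition. The wild-type RAD21 list belongs to no sample of the series, and its values are printed as the authors' values. It may come from reanalysed data, so its culture and batch are not known here. None of the genotypes is labelled as edited on chromosome 7.

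Imprinted genes are transcribed mainly from the copy inherited from 1 parent. In the H19-Igf2 cluster, CTCF is known to bind an unmethylated control region between both genes on the maternal copy, where it separates the Igf2 promoters from enhancers on the far side of H19. On the paternal copy the region is methylated, CTCF is kept off, and the growth factor gene Igf2 is transcribed in place of the non-coding RNA H19. In the neighbouring cluster, the paternal copy transcribes the long RNA Kcnq1ot1 from a control region inside Kcnq1, and neighbours such as Cdkn1c and Phlda2 are silenced on that copy. Cohesin, which contains RAD21, extrudes chromatin loops and is halted at bound CTCF, so the proteins are usually mapped together. The peak lists do not separate the parental copies, and DNA methylation was not measured.

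RAD21 peaks over member promoters are shown by sequence for both genes that had one. Promoters of 250 bases before and 50 bases after a start were found for 5 of 9 members (8 promoters, RefSeq, GRCm38.p6, the assembly that mm10 names). The Kcnq1ot1 promoter is shown because it carried wild-type RAD21 with no CTCF call in any list. It lies at chr7:143296498-143296797 on the minus strand, inside Kcnq1. Capitals mark CCAAT, a motif that NF-Y can bind, searched on both strands after this sequence had been seen.
Kcnq1ot1: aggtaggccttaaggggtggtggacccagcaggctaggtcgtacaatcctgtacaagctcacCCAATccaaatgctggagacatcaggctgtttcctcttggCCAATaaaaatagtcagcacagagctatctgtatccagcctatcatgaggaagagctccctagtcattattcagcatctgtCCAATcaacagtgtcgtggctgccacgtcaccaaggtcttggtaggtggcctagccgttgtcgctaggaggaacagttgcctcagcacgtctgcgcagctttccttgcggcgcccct
It held 3 CCAAT matches, all on the strand shown. At least 1 match was present in 37.4% of 32817 promoters in the table, and at least 3 in 3.37%. Among the 8 member promoters, 4 had at least 1 match, and Ascl2, which had no RAD21 or CTCF peak within 5 kb in any list, also had at least 3. CAGNGGGC, a short form of the CTCF core searched on both strands, had no match in it and was present in 9.06% of all promoters. Its GC content was 53.3% and it held 9 CG pairs, against medians of 52.7% and 7.0 over all promoters. The other stretch is the promoter end of a faint wild-type RAD21 peak at 1 of the 4 Igf2 promoters in the table, chr7:142661272-142661361, minus strand, 90 bases directly before that start.
Igf2: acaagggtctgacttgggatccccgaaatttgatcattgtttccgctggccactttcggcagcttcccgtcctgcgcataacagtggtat
Neither motif was found in these 90 bases, and nothing is marked in it.

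Each peak is described by 2 measures. Fold enrichment is the authors' value, which divides the pileup at a summit by local background within that library. The within-list percentile ranks this fold enrichment among all peaks of the same list, and is printed in parentheses after it. Both are read within a list, since neither shows a change between lists. Where a list holds no peak, the caller made no call, and CTCF or RAD21 may still have been bound. Read depth is unknown. There is no replicate, so no test between genotypes was possible and 95% intervals on shares (Clopper-Pearson, exact) hold for counting error alone and treat neighbouring peaks as independent.

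The plot of fold enrichment along the window shows the layout. CTCF and RAD21 peaks were spread over both clusters, with a long stretch inside and beyond Kcnq1 that had few or none. Median fold enrichment in the window was 7.69 in wild-type CTCF, 5.3 in InsCBS5-10 CTCF and 4.91 in DelCBS7-10 CTCF, with median percentiles of 67.8, 45.6 and 42.4. For RAD21 it was 5.22 (64.5) in wild type and 5.3 (36.4) in InsCBS5-10. The window's peaks thus ranked in the upper part of both wild-type lists and below the middle of the mutant lists. Medians of the whole lists were 5.6, 5.56 and 5.3 for CTCF in the same order. For RAD21 they were 4.21 in wild type and 6.17 in InsCBS5-10. The RAD21 ranks therefore differed although the window medians were nearly equal.

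**Figure D1:**
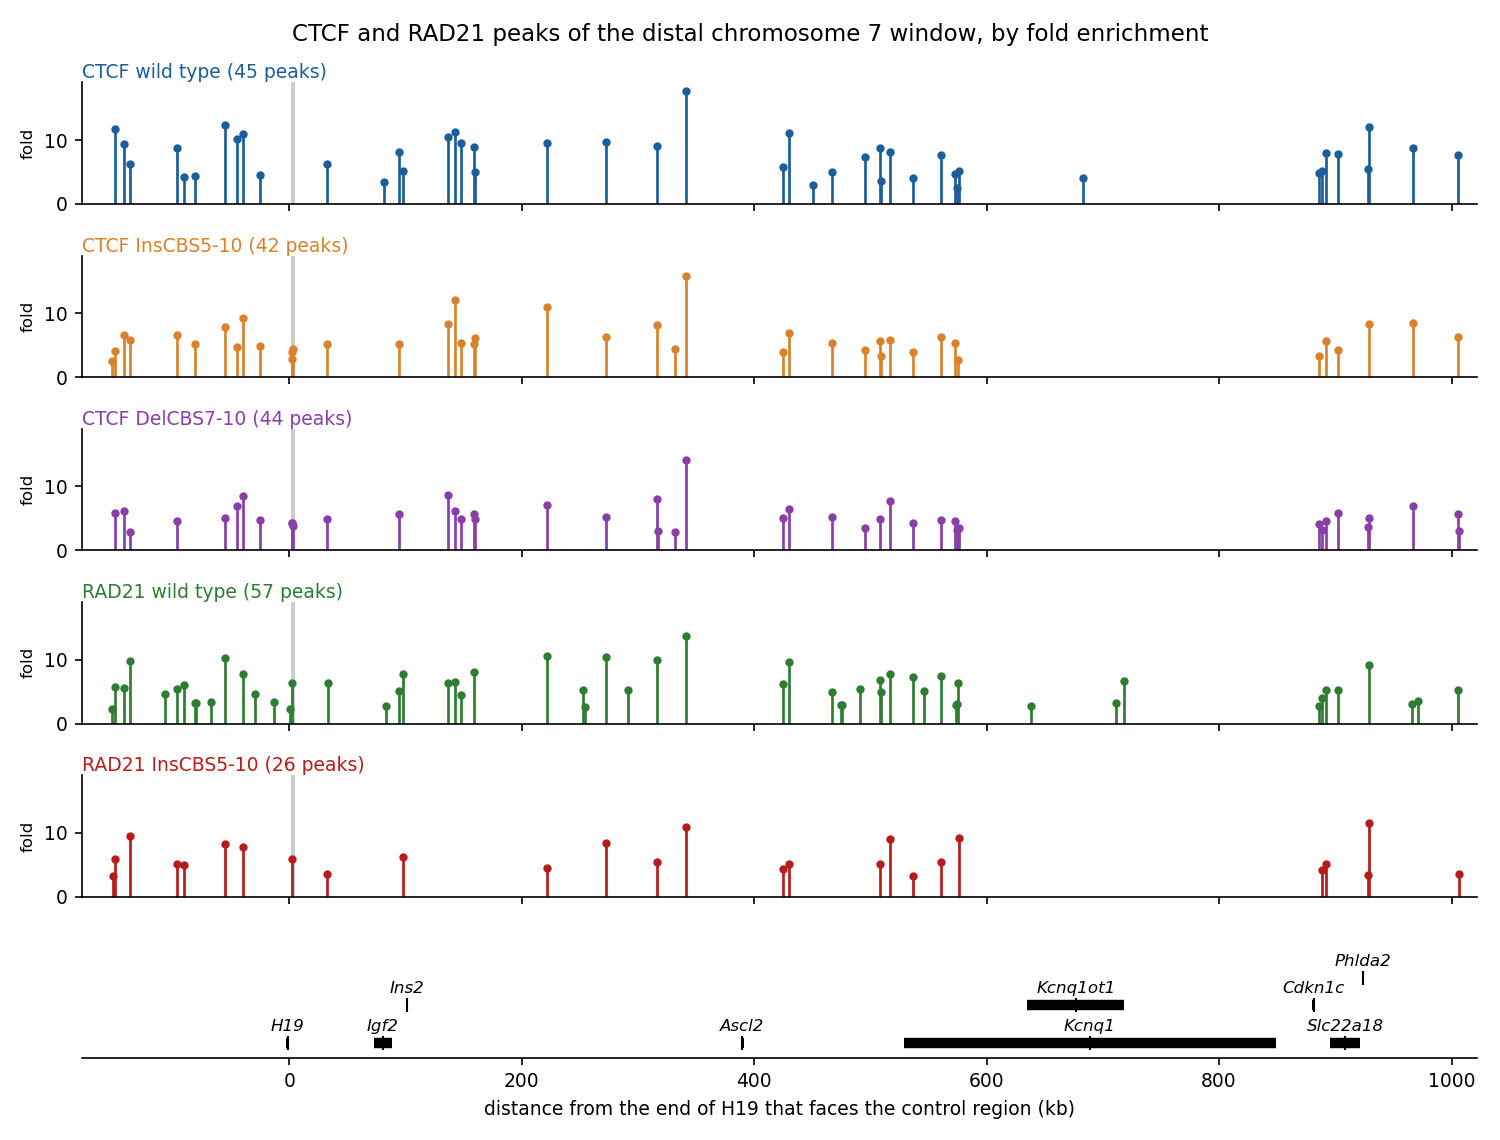
Fold enrichment (y axis) of every peak in the window against distance of its summit from the end of H19 in kb (x axis), 1 track per list, with the 9 genes as black bars and the H19 control region in grey. The tallest peak in each of the 3 CTCF tracks and in wild-type RAD21 lies before Ascl2, and few peaks lie between the first part of Kcnq1 and Cdkn1c.

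Of the 50 CTCF sites, 35 were called in all 3 CTCF lists, 8 in 2 lists and 7 in 1 list. The share in all 3 lists was 70.0% (55.4 to 82.1%), against 49.0% of all 56026 sites. Summits of these 35 sites differed between the lists by a median of 29 bp, with a range of 2 to 224 bp. RAD21 overlapped 39 of 45 wild-type CTCF peaks in the window, 86.7% (73.2 to 94.9%), against 68.7% over the whole list. In InsCBS5-10 it overlapped 23 of 42, 54.8% (38.7 to 70.2%), against 48.2%, a share close to that background. Where both were called, the nearest CTCF and RAD21 summits lay a median of 22 bp apart in each genotype (39 and 23 peaks). Of the 35 sites in all 3 CTCF lists, 20 carried RAD21 in both lists, 12 in the wild-type list alone, 0 in InsCBS5-10 alone and 3 in neither. The InsCBS5-10 RAD21 list was much the shortest, and its background share was also lower.

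**Figure D2:**
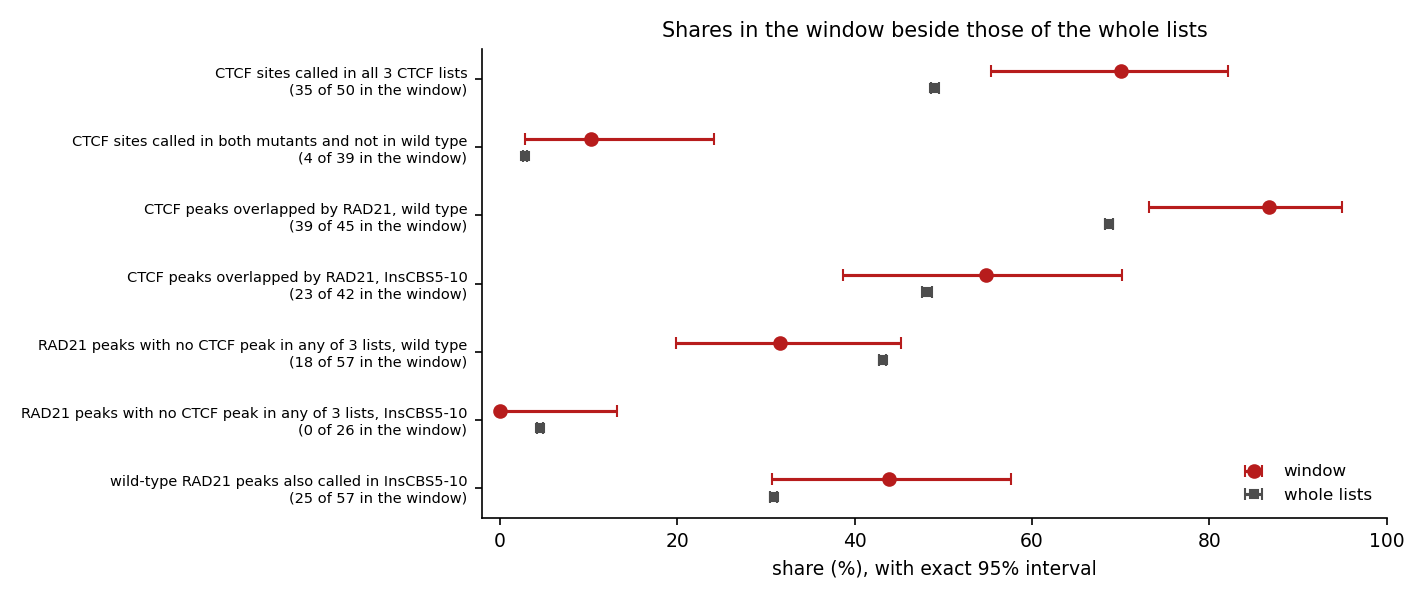
Shares in the window (red, with exact 95% intervals, in percent on the x axis) beside the same shares over the whole lists (grey squares). CTCF sites in all 3 lists (70.0% against 49.0%) and wild-type CTCF peaks with RAD21 (86.7% against 68.7%) lay above the whole lists. The window was chosen with earlier results known and neighbouring peaks are not independent, so the intervals do not test a difference. With summits within 100 bp as the overlap rule, the window held 33 of 56 sites and 80% of peaks. Whole-list shares under that rule were not computed.

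Members were also counted by whether a peak lay within 5 kb of the gene. This held for 7 of 9 members in wild-type CTCF, against 64.0% of 20278 protein-coding genes outside chromosome 11. It held for 5 of 9 in InsCBS5-10 CTCF (background 55.2%) and for 5 of 9 in DelCBS7-10 CTCF (background 57.7%). RAD21 peaks lay within 5 kb of 8 of 9 members in wild type (background 75.7%) and of 5 of 9 in InsCBS5-10 (background 38.5%). With 9 genes, these shares are near the background. Igf2, Ins2 and Kcnq1ot1 had such a CTCF peak in the wild-type list and in neither mutant list. H19 had it in both mutant lists and not in wild type. The share of all genes with either pattern was not computed. For Igf2 and Ins2 the pattern depends on the 5 kb limit. The nearest mutant CTCF peaks lay 5337 bp (InsCBS5-10) and 5257 bp (DelCBS7-10) from Igf2, and 6247 bp from Ins2 in both.

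H19 itself, a non-coding RNA gene of 2617 bp (gene ID 14955, chr7:142575530-142578146), contained no peak of any list. Its control region, taken as chr7:142580001-142583000, lies between H19 and Igf2, outside any annotated gene. No CTCF peak was called there in wild type, whereas each mutant list held 3. In InsCBS5-10 they were chr7:142580211-142580429 with 3.88 (20.5), chr7:142580614-142580826 with 2.89 (2.72) and chr7:142581661-142582107 with 4.37 (29.0). In DelCBS7-10 they were chr7:142580229-142580483 with 4.31 (30.4), chr7:142580679-142580999 with 4.26 (29.5) and chr7:142581717-142581991 with 3.86 (21.6). All 6 peaks thus ranked at percentile 30.4 or below in their own list, and the weakest, in InsCBS5-10, had a −log10 q of only 2.5. The summits of each pair lay 14, 13 and 34 bp apart.

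RAD21 at the control region was called in both genotypes. In wild type, where no CTCF peak was called, a RAD21 peak covered chr7:142580045-142580945 with fold enrichment 6.3 (74.6) and a −log10 q of 32.6. In InsCBS5-10 the RAD21 peak covered chr7:142580136-142580907 with 5.95 (46.7) and a −log10 q of 33.1. Each had a second summit, with 4.67 in wild type and 4.38 in InsCBS5-10. Both peaks overlapped the first and the second of the mutants' CTCF sites, and neither reached the third. A further, faint wild-type RAD21 peak, chr7:142579127-142579320 with 2.3 (1.38), lay 981 bp from H19, before the control region.

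**Figure D3:**
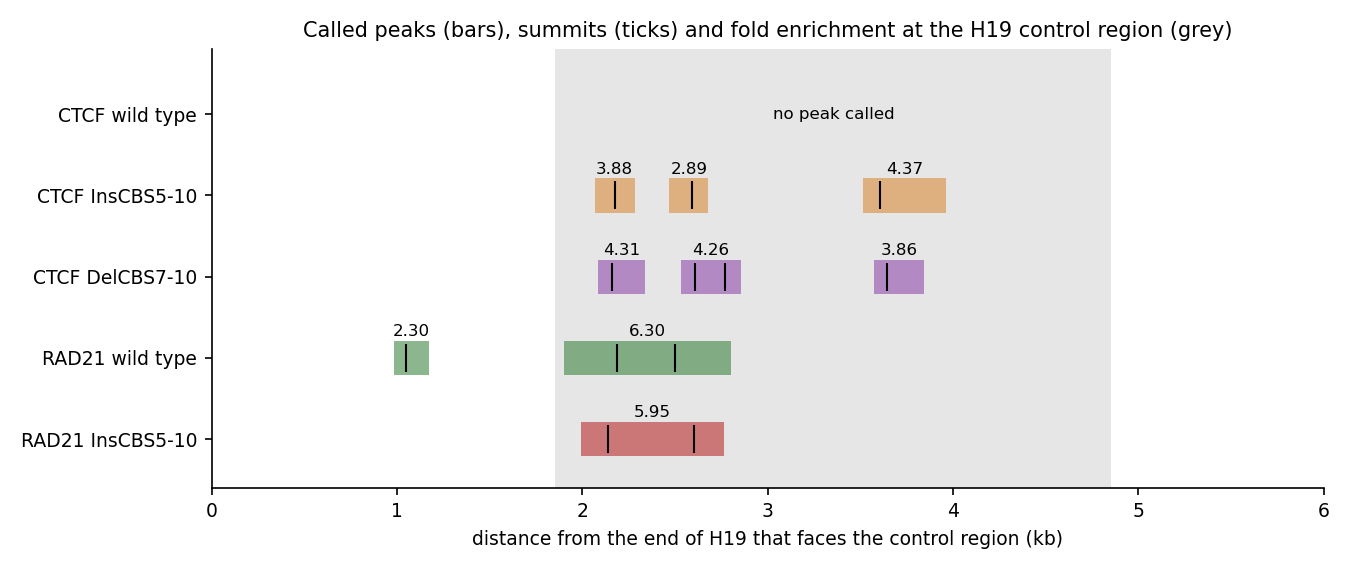
Called intervals (bars), summits (ticks) and fold enrichment (numbers) in each of the 5 lists against distance from the end of H19 in kb, with the control region in grey. The wild-type CTCF row is empty, each mutant CTCF row holds 3 intervals, and RAD21 of both genotypes overlaps the first and second of them.

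The nearest wild-type CTCF peaks were chr7:142552464-142552781 before the region, with 4.58 (39.4), and chr7:142610520-142610943 after it, with 6.18 (55.5). Among sites called in both mutants, the share with no wild-type call was 4 of 39 in the window, 10.3% (2.87 to 24.2%), against 2.84% over all sites. These 4 were the 3 sites of the control region and chr7:142909698-142910038, between Th and Ascl2. The window was chosen with earlier results of these data known, and the 3 sites are neighbours in 1 region. The share and its interval therefore lend no support to a difference from the background. Genotype, culture and library cannot be told apart here, since each genotype has 1 CTCF library.

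The side of H19 away from Igf2 held 11 CTCF sites, of which 8 were called in all 3 CTCF lists and 7 carried RAD21 in both RAD21 lists. In the following, a site's interval is the union over the CTCF lists and CTCF values are given for wild type, InsCBS5-10 and DelCBS7-10 in turn, RAD21 for wild type and InsCBS5-10. The outermost site, chr7:142425995-142426206, was called for CTCF in InsCBS5-10 alone, with 2.59 (0.872), and carried faint RAD21 of 2.3 (1.32) and 3.29 (4.95). Next to it, chr7:142427932-142428688 had CTCF of 11.8 (91.4), 4.1 (24.1) and 5.91 (61.0), with RAD21 of 5.74 (69.9) and 5.92 (46.3). CTCF ranked high there in the wild-type list and low in the InsCBS5-10 list.

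Syt8, a synaptotagmin gene, held chr7:142435365-142435949, with CTCF of 9.35 (79.3), 6.58 (65.9) and 6.14 (65.1) and RAD21 in wild type alone, 5.54 (67.9). Just outside Syt8, chr7:142440600-142440901 had CTCF of 6.21 (55.7), 5.79 (53.6) and 2.93 (3.03). RAD21 ranked far higher there than CTCF, at 9.71 (94.2) and 9.54 (86.0).

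Lsp1, which encodes a leukocyte actin-binding protein, held 2 sites. At chr7:142481062-142481604 CTCF reached 8.83 (76.0), 6.52 (65.1) and 4.67 (37.5), and RAD21 5.46 (67.0) and 5.11 (33.3). At chr7:142487340-142487555 CTCF was called in wild type alone, 4.29 (35.9), yet RAD21 was called in both lists, 5.99 (72.1) and 4.92 (30.4). Prr33 held chr7:142496874-142497236, with CTCF of 4.37 (36.7) in wild type, 5.16 (43.4) in InsCBS5-10, no call in DelCBS7-10, and RAD21 of 3.28 (26.3) in wild type alone.

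Beyond Tnnt3, a skeletal muscle troponin gene, chr7:142522372-142522735 had CTCF of 12.4 (93.5), 7.9 (82.4) and 5.13 (46.6) and RAD21 of 10.2 (95.8) and 8.22 (75.5). Mrpl23, a gene for a mitochondrial ribosomal protein, held 2 sites that differed in RAD21. The first, chr7:142532809-142533284, had CTCF of 10.2 (84.2), 4.79 (36.4) and 6.89 (76.1) and no RAD21 call in either list. The other, chr7:142537909-142538367, had CTCF of 11 (88.2), 9.21 (92.0) and 8.49 (91.5) with RAD21 of 7.83 (85.2) and 7.72 (70.2), and was among the steadiest strong sites of the window. The site nearest to H19 on this side, chr7:142552404-142552781 in the non-coding gene Nctc1, was weaker, with CTCF of 4.58 (39.4), 4.85 (37.9) and 4.7 (37.9), and had no RAD21 call.

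Between the control region and Igf2, only chr7:142610520-142610943 was called, inside the predicted gene Gm33148, 39825 bp before Igf2. CTCF there was 6.18 (55.5), 5.22 (44.4) and 4.9 (42.1), and RAD21 6.4 (75.4) and 3.54 (8.36).

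Igf2, a protein-coding gene for insulin-like growth factor 2 (gene ID 16002, chr7:142650768-142666816), had few calls of either protein, all of low rank. Its span held a CTCF peak in wild type alone, chr7:142659259-142659555, with 3.38 (21.0), a −log10 q of only 3.05 and no RAD21. The summit of this CTCF peak lay at -659 bp from 1 of the annotated starts. It also held the wild-type RAD21 peak chr7:142661053-142661361, with 2.77 (10.3), whose summit lay 92 bp after the start of the promoter printed above. No CTCF peak was called within Igf2 in either mutant, where the nearest CTCF peaks were 5337 bp away in InsCBS5-10 and 5257 bp away in DelCBS7-10. No RAD21 peak was called within Igf2 in InsCBS5-10, and DelCBS7-10 has no RAD21 list.

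Ins2, 1 of both mouse insulin genes (gene ID 16334, chr7:142678656-142679726), held no peak, but 2 sites lay between it and Igf2. At chr7:142672073-142672476 CTCF was called in all 3 lists, with 8.15 (71.2), 5.12 (42.3) and 5.65 (56.5), and its summits agreed within 7 bp. RAD21 was called there in wild type alone, 5.16 (63.5). The reverse pattern stood at chr7:142675740-142675946, 2710 bp from Ins2. CTCF was called there in wild type alone, 5.13 (45.4), and RAD21 in both lists, 7.75 (84.7) and 6.25 (51.1).

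Beyond Ins2, 5 CTCF sites in the predicted gene Gm39116 formed a cluster between chr7:142714403 and 142738206. Each was called in all 3 CTCF lists, each carried RAD21 in wild type, and none carried a RAD21 call in InsCBS5-10. The first, chr7:142714403-142715051, had CTCF of 10.5 (85.7), 8.35 (86.4) and 8.7 (92.7) and wild-type RAD21 of 6.33 (74.9). The second, chr7:142720708-142721147, had 11.2 (89.0), 12.1 (98.8) and 6.23 (66.5), with RAD21 of 6.45 (75.8). In InsCBS5-10 this was the second strongest CTCF peak of the window, and it had no RAD21 call. Over the whole lists, RAD21 overlapped 48.2% of InsCBS5-10 CTCF peaks, and 30.9% of wild-type RAD21 peaks were also called in InsCBS5-10.

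The remaining sites of the cluster ranked between 40.6 and 58.5 in the mutant lists. At chr7:142726016-142726503 CTCF was 9.5 (80.3), 5.3 (45.7) and 4.84 (40.6) and RAD21 4.48 (54.6). At chr7:142736943-142737311 CTCF was 8.94 (76.7), 5.24 (44.6) and 5.63 (56.0), and at chr7:142737785-142738206 it was 4.96 (43.5), 6.1 (58.5) and 4.92 (42.6). A single wild-type RAD21 peak of 8.11 (86.7) covered both of these neighbouring sites. The InsCBS5-10 RAD21 list had a gap of 124 kb here, from 142676008 to 142799545.

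Between this cluster and Th lay 2 strong sites. At chr7:142799428-142799939, outside any annotated gene, CTCF was 9.46 (80.0), 10.9 (97.5) and 7.14 (79.4), with summits within 2 bp of each other, and RAD21 was 10.5 (96.7) and 4.46 (22.4). At chr7:142850669-142851243, inside Gm6471 and Gm39117, CTCF was 9.68 (81.3), 6.26 (61.1) and 5.29 (49.9) and RAD21 10.4 (96.3) and 8.49 (77.8). Both ranked in the top 5% of wild-type RAD21. Th, the gene for tyrosine hydroxylase, which makes the precursor of dopamine, held chr7:142894688-142895368 with CTCF of 9.07 (77.6), 8.1 (84.2) and 8.08 (88.8) and RAD21 of 9.93 (95) and 5.49 (39.5). Beside it, chr7:142895445-142895631 was called for CTCF in DelCBS7-10 alone, 2.97 (3.51), with no RAD21.

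The strongest site of the window stood between both clusters. At chr7:142919170-142919681, 19175 bp from Th and 47141 bp from Ascl2, CTCF reached 17.6 (99.5), 15.8 (99.7) and 14.1 (99.6), the highest value of the window in each CTCF list. RAD21 was 13.7 (99.8) in wild type, also the highest of the window, and 10.9 (93.3) in InsCBS5-10. The only other site of this middle stretch was chr7:142909698-142910038, with no wild-type CTCF call, 4.37 (29.0) in InsCBS5-10, 2.93 (2.99) in DelCBS7-10 and no RAD21.

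Ascl2, a basic helix-loop-helix factor needed for the trophoblast lineage (gene ID 17173, chr7:142966822-142969264), was the only member with no peak within 5 kb in any of the 5 lists. It lay in a gap of 83.1 kb without a CTCF peak in any list, from 142919682 to 143002735. The nearest wild-type peaks on the far side, CTCF and RAD21 alike, were 33472 bp (CTCF) and 33446 bp (RAD21) away, at the first site of the Tspan32 group described next.

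Between Ascl2 and Kcnq1, 8 CTCF sites lay in or near Tspan32, R74862 and Trpm5. Beside Tspan32, a tetraspanin gene, chr7:143002736-143003013 had CTCF of 5.82 (52.1), 3.92 (21.0) and 5.07 (45.5) and RAD21 of 6.16 (73.4) and 4.33 (20.4). Inside it, chr7:143008003-143008619 had CTCF of 11.1 (88.7), 6.92 (70.9) and 6.46 (70.1) and RAD21 of 9.58 (93.7) and 5.05 (32.3), which made it a strong site of the wild-type lists.

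R74862 held 2 weaker sites. At chr7:143028863-143029016 CTCF was called in wild type alone, 2.99 (12.6), with no RAD21. At chr7:143044927-143045224 CTCF was 4.93 (43.2), 5.3 (45.5) and 5.27 (49.6), and RAD21 was called in wild type alone, 5.0 (61.8).

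Trpm5, a cation channel gene of taste cells, held 4 sites that differed in RAD21. The first, chr7:143072969-143073779, had CTCF of 7.38 (65.4), 4.29 (27.7) and 3.52 (14.6), summits spread over 224 bp, and no RAD21. At chr7:143085818-143086779 CTCF was 8.83 (76.0), 5.66 (51.4) and 4.84 (40.5) and RAD21 6.89 (79.1) and 5.15 (34.0). At chr7:143087361-143087627 CTCF was 3.6 (24.9) in wild type and 3.27 (9.28) in InsCBS5-10, with no call in DelCBS7-10, and RAD21 was 4.9 (60.3) in wild type alone. The last, chr7:143094603-143095367, ranked above 80 in both RAD21 lists, with CTCF of 8.2 (71.6), 5.74 (52.7) and 7.75 (85.9) and RAD21 of 7.8 (85.1) and 9.06 (82.5).

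Kcnq1, which encodes the pore-forming subunit of a voltage-gated potassium channel (gene ID 16535, chr7:143106877-143427050), spans 320174 bp, against a median of 17.4 kb for protein-coding genes. Its peaks were crowded into its first part. At chr7:143114797-143115086 CTCF was 4.0 (31.5), 3.94 (21.4) and 4.23 (29.0), below the middle of each list, and RAD21 was 7.29 (81.9) and 3.29 (4.89). At chr7:143138476-143139248 CTCF was 7.6 (67.1), 6.22 (60.5) and 4.79 (39.7) and RAD21 7.4 (82.6) and 5.46 (38.9).

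A broad site, chr7:143151177-143152544, held several summits. Its strongest CTCF peaks were 4.65 (40.0), 5.28 (45.3) and 4.61 (36.4). Each wild-type list and the DelCBS7-10 list split it into 2 peaks, of which the lesser CTCF peaks were 2.56 (1.91) in wild type and 3.16 (7.8) in DelCBS7-10. Wild-type RAD21 there was 3.12 (22.5) and 2.98 (17.5), and no RAD21 was called in InsCBS5-10. The next site, chr7:143153793-143154158, paired weak CTCF with strong RAD21, since CTCF was 5.17 (45.8), 2.61 (0.951) and 3.48 (13.0) and RAD21 6.35 (75.1) and 9.22 (83.7). In InsCBS5-10 only the RAD21 peak beside Phlda2 was higher among those from Ascl2 onward.

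From there to Cdkn1c, the window was nearly bare. The CTCF lists of InsCBS5-10 and DelCBS7-10 had no peak for 310 kb, from 143154055 to 143463973 in InsCBS5-10. RAD21 of InsCBS5-10 had none for 312 kb. In wild type, 1 CTCF peak broke this stretch into gaps of 107 and 203 kb. It was chr7:143260881-143261041, inside both Kcnq1 and Kcnq1ot1, with 4.06 (32.6) and no RAD21.

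Kcnq1ot1, the long non-coding RNA gene inside Kcnq1 (gene ID 63830, chr7:143213111-143296547), held 3 wild-type RAD21 peaks, none on a CTCF site. The strongest was chr7:143296171-143296879, with 6.59 (76.9) and a −log10 q of 21.2. It covered the promoter printed above, and its summit lay at -135 bp, before the start. The others were faint, chr7:143216103-143216364 with 2.74 (9.5) and chr7:143289100-143289338 with 3.23 (25.2). No RAD21 peak was called in Kcnq1ot1 in InsCBS5-10, and the nearest CTCF peak to the gene was 59057 bp away in InsCBS5-10 and 59037 bp away in DelCBS7-10.

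**Figure D4:**
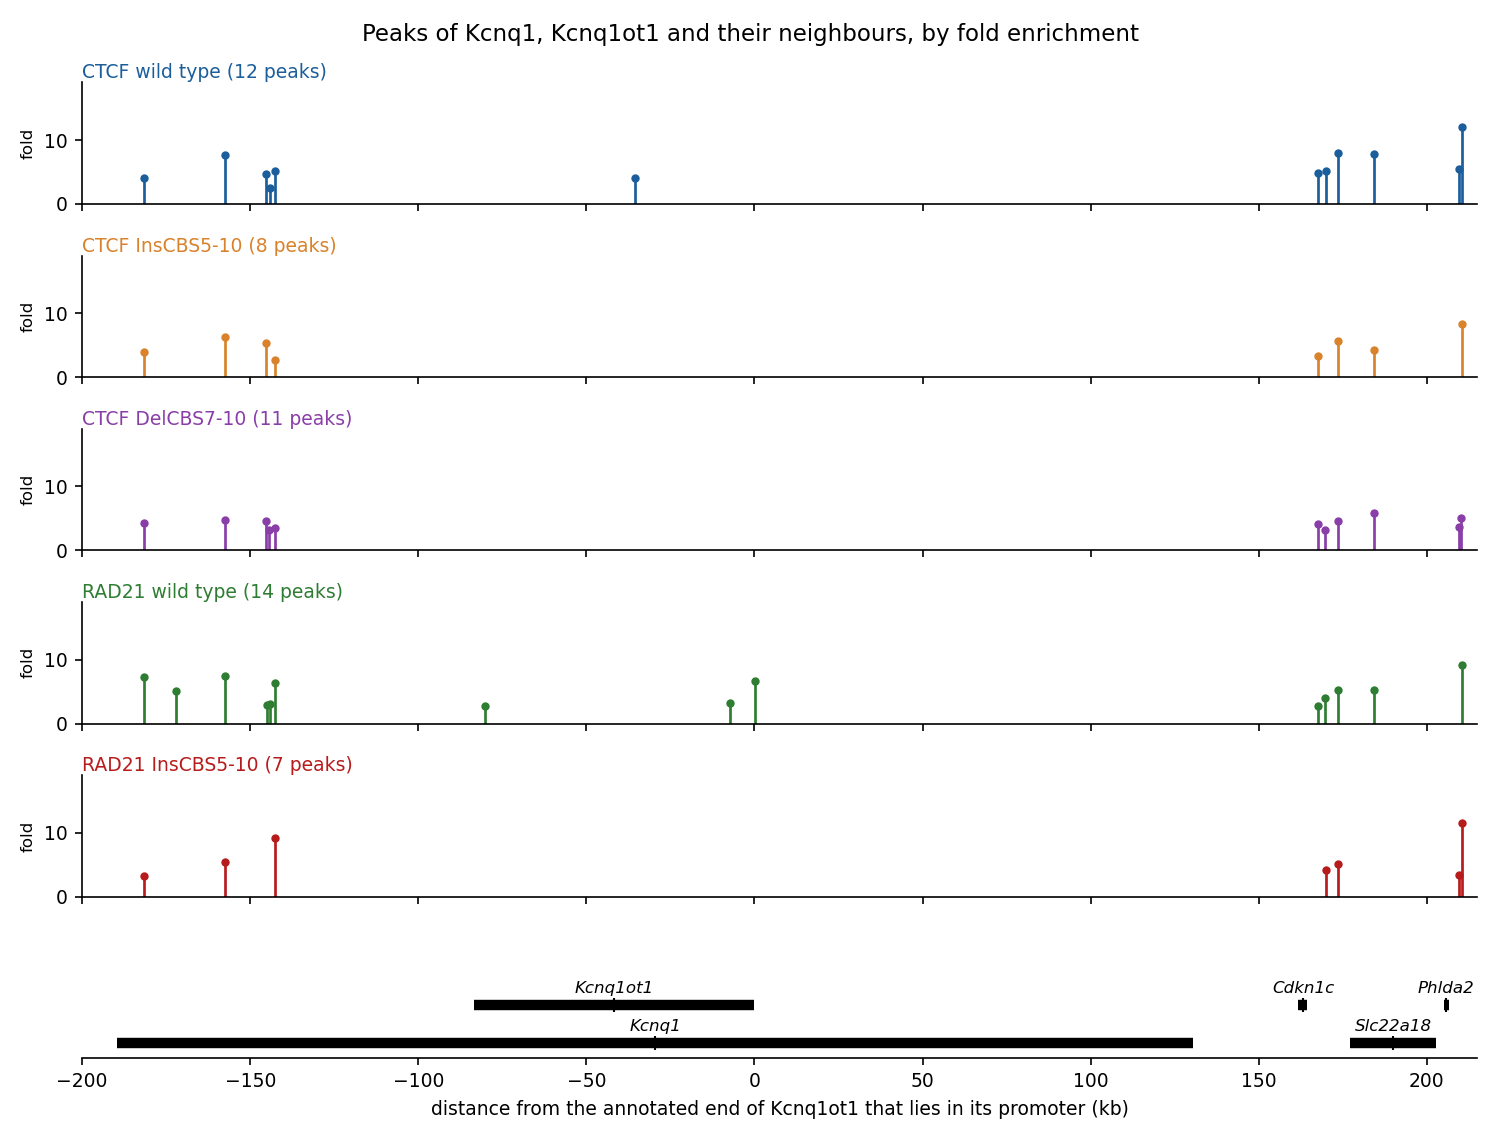
Fold enrichment (y axis) against distance of the summit from the Kcnq1ot1 start in kb (x axis), 1 track per list, with the gene spans below. Wild-type RAD21 has a peak of 6.59 at the start, where the 3 CTCF tracks and InsCBS5-10 RAD21 have none.

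Cdkn1c, which encodes the cell cycle inhibitor p57 (gene ID 12577, chr7:143458339-143461059), held no peak. Of the sites beside it, chr7:143463903-143464415 lay 2844 bp away and had CTCF of 4.79 (41.8), 3.32 (10.0) and 4.08 (25.3), with RAD21 in wild type alone, 2.74 (9.32). The next, chr7:143466278-143466638, had CTCF of 5.16 (45.7) in wild type and 3.11 (5.72) in DelCBS7-10, none in InsCBS5-10, and RAD21 of 4.02 (46.2) and 4.17 (17.5). Both lay within the predicted gene Gm33663 and ranked below the middle of every list.

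Slc22a18, a gene for a membrane transporter of the organic cation family (gene ID 18400, chr7:143473726-143499334), had 1 site before it and 1 inside it. At chr7:143469871-143470458, 3268 bp before the gene, CTCF was 7.91 (69.5), 5.62 (50.9) and 4.67 (37.5) and RAD21 5.31 (65.4) and 5.12 (33.4). Inside, at chr7:143480479-143481014, CTCF was 7.85 (69.0), 4.27 (27.4) and 5.91 (61.0), with RAD21 in wild type alone, 5.22 (64.5).

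Phlda2, which encodes a pleckstrin homology domain protein that restrains placental growth (gene ID 22113, chr7:143501545-143503145), had the strongest CTCF and RAD21 peaks within 5 kb of any member in wild type and InsCBS5-10. At chr7:143506683-143507148, 3538 bp away, CTCF was 12.1 (92.5), 8.25 (85.6) and 5.09 (45.7). RAD21 there was 9.22 (92.3) in wild type and 11.6 (95.7) in InsCBS5-10, the highest of the window in that list. Nearer to the gene, at chr7:143505892-143506303, CTCF was 5.54 (49.5) in wild type, 3.68 (17.4) in DelCBS7-10 and not called in InsCBS5-10. The wild-type RAD21 peak covered both sites, and InsCBS5-10 had a separate RAD21 peak of 3.4 (6.24) at the nearer one.

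Past Phlda2, the window closed with 2 sites called in all 3 CTCF lists. In Nap1l4, a nucleosome assembly protein gene, chr7:143544293-143545115 had CTCF of 8.83 (76.0), 8.47 (87.4) and 6.94 (76.7) and faint RAD21 in wild type alone, 3.01 (18.2). In Cars, a gene for a transfer RNA synthetase, chr7:143583954-143584922 had CTCF of 7.69 (67.8), 6.25 (61.0) and 5.75 (58.3) and RAD21 of 5.18 (63.8) and 3.56 (8.57). A second DelCBS7-10 CTCF peak in that interval had 3.04 (4.61).

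**Figure D5:**
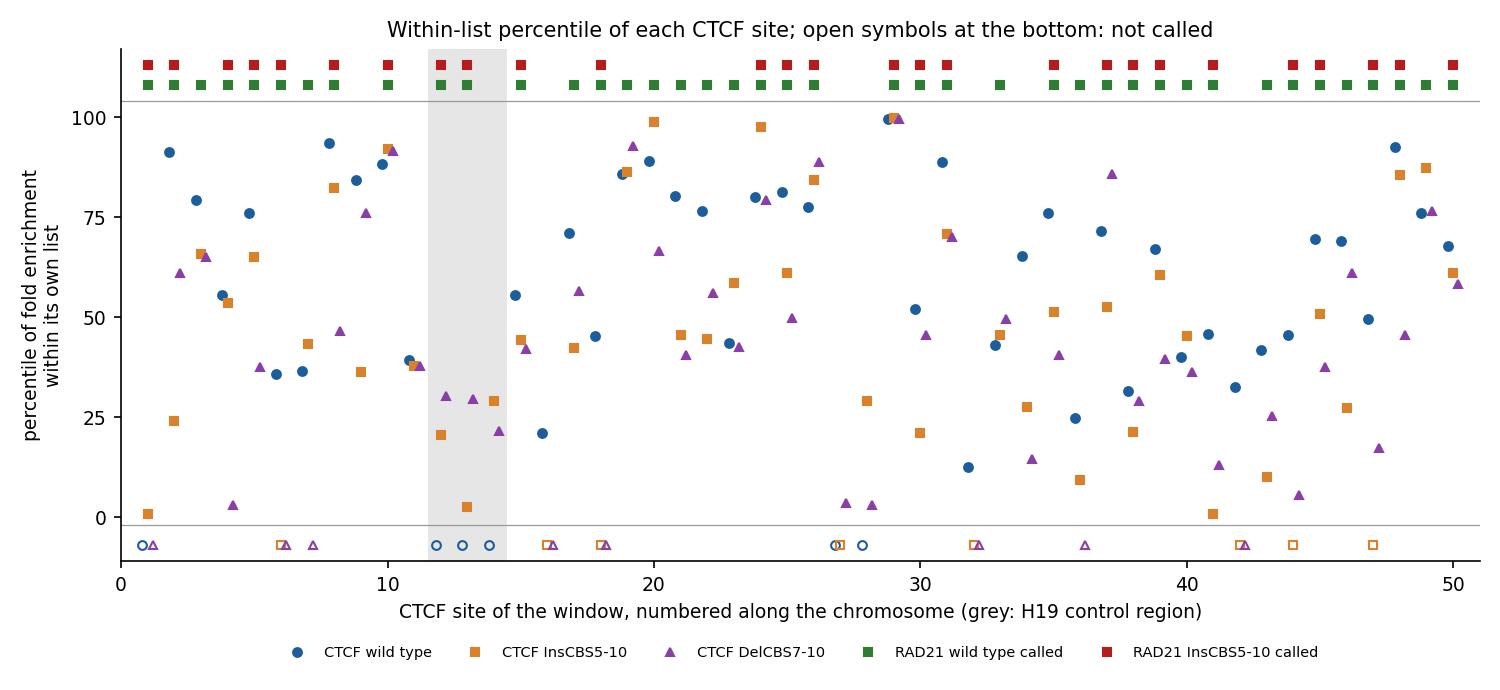
Within-list percentile of fold enrichment (y axis) of the 50 CTCF sites in order along the chromosome (x axis) in the 3 CTCF lists, with open symbols at the bottom where a list had no call and squares at the top where RAD21 was called. The strongest site, between Th and Ascl2, sits above 99 in all 3 lists, and the 3 sites of the control region (grey) have no wild-type call.

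RAD21 was also called away from CTCF in the window. Of its 57 window peaks, 18 overlapped no CTCF peak of any list, 31.6% (19.9 to 45.2%), against 43.2% over the whole list. In InsCBS5-10 this held for 0 of 26, which allows a share of up to 13.2%, against 4.53%, and so is near the background. The InsCBS5-10 RAD21 list is shorter (19610 against 59484 peaks). Peaks under 3-fold make up 1.97% of it, against 18.0% of the wild-type RAD21 list. The 18 wild-type peaks had a median percentile of 29.2, with a range of 1.38 to 76.9, against a median of 74.6 for those on CTCF sites. The same medians over the whole list were not computed. Several of the 18 ranked above the middle of the list. The peak at the Kcnq1ot1 start was the strongest of them. Of all 57 wild-type RAD21 peaks, 25 were also called in InsCBS5-10, 43.9% (30.7 to 57.6%), against 30.9% over the whole list.

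Of the 18, 10 lay in the H19-Igf2 cluster up to the end of Th, and 8 from Ascl2 onward. Apart from those named at H19, Igf2 and Kcnq1ot1, the H19-Igf2 cluster had chr7:142470794-142471217 in Lsp1 with 4.55 (55.5), chr7:142497744-142498096 in Prr33 with 3.21 (24.7) and chr7:142510355-142510737 in Tnnt3 with 3.33 (27.7). Around Nctc1 it had chr7:142548281-142549220 with 4.62 (56.5) and chr7:142564793-142565705 with 3.4 (30.7). These lie on the side of H19 away from Igf2. Near Gm6471 it had chr7:142830980-142831798 with 5.18 (63.8), chr7:142832022-142832375 with 2.59 (5.29) and chr7:142869274-142869990 with 5.21 (64.4).

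In the Kcnq1ot1 cluster, chr7:143052429-143053025 with 2.96 (17.0) and chr7:143053416-143053624 with 2.98 (17.4) lay at Cd81, a tetraspanin gene with no CTCF peak within 5 kb in any list. Tssc4 held chr7:143068618-143069435 with 5.36 (66.0). The first part of Kcnq1 held chr7:143124283-143124660 with 5.16 (63.5), and Nap1l4 held chr7:143549096-143549378 with 3.51 (33.5).

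The converse, RAD21 on a site where the CTCF list of the same genotype had none, occurred at 4 sites in InsCBS5-10. They were the second Lsp1 site, the site before Ins2, the outer site beside Cdkn1c and the nearer site at Phlda2, all of which had a wild-type CTCF call. In wild type it occurred at 3 sites, which were the outermost site before Syt8 and the first and second sites of the H19 control region. The RAD21 peak at the control region was much the stronger of these in percentile. The share of all sites with this pattern was not computed for either genotype.

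By cluster, 18 of 27 CTCF sites of the H19-Igf2 stretch and 16 of 21 of the Kcnq1ot1 stretch were called in all 3 lists. In wild type, CTCF peaks of the H19-Igf2 stretch had a median percentile of 77.2 (22 peaks) and those of the Kcnq1ot1 stretch 50.8 (22 peaks). The medians lay closer in InsCBS5-10, 45.7 and 45.5 (23 and 17 peaks), and in DelCBS7-10, 48.2 and 38.6 (22 and 20 peaks). Wild-type CTCF peaks with RAD21 had a median percentile of 69.5 (39 peaks) and those without it 36.0 (6 peaks). In InsCBS5-10 the medians were 53.6 (23 peaks) and 43.4 (19 peaks). Medians with and without RAD21 over the whole CTCF lists were not computed.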

How the data were processed

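CTCF and RAD21 peaks were read from 5 deposited narrowPeak lists of mouse gastruloids, 4 with a sample and 1 (wild-type RAD21) without. Per the submitters' processing notes, the authors used cutadapt 4.1 and MACS2 2.2.7.1 on mm10. For the aligner, filters, control library and peak-calling options, nothing is given in the sources used here. Peak names in the files show an edited mm10 with 2 versions of chromosome 11. The authors' deposited values are a score (10 times −log10 q), the fold enrichment, a ratio, and −log10 q, with a smallest −log10 q of 1.3 in each list. Read depth is unknown.

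Summits with the same interval were merged to the strongest. Overlap meant 1 bp or more. Percentiles rank fold enrichment over chromosomes 1 to 19, X and Y. Gene spans came from RefSeq on GRCm38.p6, without exons, so exonic or intronic position is not given; the 1609 protein-coding genes of chromosome 11 were left out of the gene background, because its sequence was edited. Sites are given for every member and for neighbours by a list. The members, window and lists were chosen with earlier results of these data known. The overlap code was checked on simulated lists. Python 3.11.15, pandas 2.3.3, numpy 2.4.6, scipy 1.17.1 and matplotlib 3.10.9 were used. Samples were grouped by title, no test was made with 1 library per group, and a stricter q, other overlap rules, gene distances and region limits were tried.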

Additional observations from a re-analysis of the deposited data

How the results depend on the processing

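Of 43 alternative values for 16 results, 37 stayed within 1.5 times the reported count, or within the interval of the reported share, and 6 moved. Counting every summit gave 2 RAD21 peaks in the H19 control region in wild type and 2 in InsCBS5-10, in place of 1 each, and wider region limits gave 2 in wild type, through the faint peak beside H19. Within 1 kb of a gene in place of 5 kb, the wild-type CTCF list had a peak at 4 members, InsCBS5-10 at 2 and DelCBS7-10 at 2. Within 20 kb, each of the 3 CTCF lists had a peak at 7 of 9 members, but not at the same ones. H19 still had none in wild type, where the nearest CTCF peak lay 22749 bp away. Kcnq1ot1 still had none in InsCBS5-10 (nearest at 59057 bp) or DelCBS7-10 (nearest at 59037 bp). At a −log10 q of 5 or more, CTCF peaks in the control region numbered 0 in wild type, 2 for InsCBS5-10 and 3 for DelCBS7-10. No paired analysis was possible because each group has 1 library. Depth is unknown, so a missing call cannot be set against it, and differences between genotypes have no replicate check. The wild-type RAD21 list belongs to no sample, and whether it shares a culture with the wild-type CTCF library is not known here.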

Other observations

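Beside the 9 members, 19 neighbouring genes from Ctsd to Dhcr7 were read from a list. A CTCF peak lay within 5 kb of 16 of them in wild type, of 15 in each mutant and of 14 in all 3 lists, where the shares over all protein-coding genes outside chromosome 11 were 64.0% for wild type, 55.2% for InsCBS5-10 and 57.7% for DelCBS7-10. RAD21 lay within 5 kb of all 19 in wild type and of 11 in InsCBS5-10, with shares over all genes of 75.7% and 38.5%. Cd81 and Tnfrsf23 had no CTCF peak within 5 kb in any list. For a peak in all 3 lists, or in none, no share over all genes was computed. The strongest CTCF peak near any of the 19 neighbours in wild type was at Osbpl5, an oxysterol-binding protein gene beyond the window, with a fold enrichment of 18.5.

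Outside chromosome 11, 13 other genes of insulin and insulin-like growth factor signalling were read in the same way. CTCF lay within 5 kb of 12 in wild type and InsCBS5-10 and of 11 in DelCBS7-10, and RAD21 within 5 kb of 12 and 10. The shares over all genes are those above, 64.0%, 55.2% and 57.7% for CTCF and 75.7% and 38.5% for RAD21. Ins1, the other insulin gene, had no peak of either protein in any list. Igf2r, which encodes the receptor that clears Igf2 and is itself imprinted, had CTCF peaks whose strongest fold enrichment was 3.56 in the wild-type list (list median 5.6), 3.22 for InsCBS5-10 (list median 5.56) and 5.49 for DelCBS7-10 (list median 5.3). Igfbp7, an IGF-binding protein gene, had a CTCF peak of 16.6 in wild type.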
